A study of Mus musculus with 8 samples.

Results

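Bdnf and 4 genes that neurons switch on within minutes of firing, Arc, Fos, Egr1 and Npas4, were examined for 5-hydroxymethylcytosine (5hmC) in the hippocampus of mice that differed in age and housing. The members were chosen by position alone: every 5hmC peak of the 8 deposited lists that overlapped 1 of 5 fixed intervals on the mouse build mm9. The intervals were chr2:109490000-109590000 around Bdnf, chr15:74475000-74525000 around Arc, chr12:86790000-86840000 around Fos, chr18:35000000-35050000 around Egr1 and chr19:4960000-5010000 around Npas4. They held 68 of the 393283 peaks, 29 at Fos, 24 at Egr1, 6 at Bdnf, 5 at Arc and 4 at Npas4. The C57BL/6 mice formed 4 groups with 2 samples each: aged enriched, aged control, young enriched and young control. The aged mice were 18 months old and the young mice 6 weeks old. Enriched mice spent 5 h a day for 4 weeks in a large chamber holding toys, tunnels and a wheel, and control mice stayed in standard cages. 5hmC was tagged by a glucose that carried biotin, the tagged DNA was captured and sequenced, and the authors called peaks in each sample alone. The labels give neither the sex of the mice nor whether a sample was 1 hippocampus or a pool, and they do not name separate mice for the replicates. The p-values therefore measure only how far these samples vary, which could be technical. A hippocampus holds neurons, glia and vessels, and a bulk peak does not tell which cells carry the mark.

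TET enzymes make 5hmC by oxidising 5-methylcytosine, the mark of DNA methylation. Neurons hold much of it, mostly in the bodies of active genes and in enhancers, and it is usually scarce at the starts of CpG-rich promoters. Bdnf encodes brain-derived neurotrophic factor, a secreted ligand of the TrkB receptor that supports synapses and memory, and it is transcribed from several alternative promoters. Fos is a subunit of the AP-1 transcription factor, Egr1 is a zinc finger transcription factor, and Npas4 is a transcription factor that responds to calcium entry and regulates inhibitory synapses. Arc is an effector protein that helps remove AMPA receptors from synapses. Firing reaches several of these genes through CREB, a factor that binds the sequence TGACGTCA or either end of it.

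The starts of these genes are shown for their CREB-type sites and for their CpG sites, the bases that carry nearly all 5hmC. RefSeq promoter windows of the build GRCm38.p6, from 250 bases before to 50 bases after a transcription start, were matched for 3 of the 5 genes: 7 windows of Bdnf and 1 each of Fos and Npas4. The Bdnf window with a CREB-type match and the windows of Fos and Npas4 are printed 5′ to 3′ on the gene's own strand, with each TGACG or CGTCA in capitals.
Bdnf promoter 3: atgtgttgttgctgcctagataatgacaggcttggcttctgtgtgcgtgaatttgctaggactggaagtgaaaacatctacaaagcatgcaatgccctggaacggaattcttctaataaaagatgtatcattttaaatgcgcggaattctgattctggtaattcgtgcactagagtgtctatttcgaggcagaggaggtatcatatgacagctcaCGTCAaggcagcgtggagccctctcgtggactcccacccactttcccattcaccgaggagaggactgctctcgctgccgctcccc
Fos promoter: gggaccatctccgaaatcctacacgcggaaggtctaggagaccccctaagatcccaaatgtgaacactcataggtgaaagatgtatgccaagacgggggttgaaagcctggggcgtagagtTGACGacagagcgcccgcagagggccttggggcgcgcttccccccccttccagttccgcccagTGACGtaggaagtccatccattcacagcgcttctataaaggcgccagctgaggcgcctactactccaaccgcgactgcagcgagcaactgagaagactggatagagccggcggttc
Npas4 promoter: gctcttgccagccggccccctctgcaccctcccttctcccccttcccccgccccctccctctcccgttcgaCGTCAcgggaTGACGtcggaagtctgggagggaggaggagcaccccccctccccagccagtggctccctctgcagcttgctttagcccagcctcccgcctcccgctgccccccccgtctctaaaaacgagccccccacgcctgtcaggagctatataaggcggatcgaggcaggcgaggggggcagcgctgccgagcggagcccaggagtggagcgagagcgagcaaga
The Fos and Npas4 windows each held 2 matches to TGACG or CGTCA, the same letters read on either strand. The printed Bdnf window held 1 match and the other 6 Bdnf windows held 0. Of all 32544 mouse promoter windows of this length, 20.9% held such a match. The full palindrome TGACGTCA was in 0 of the 9 windows, against 1.80% of all windows. CpG sites numbered 20 in the Fos window and 21 in the Npas4 window. The printed Bdnf window held 12 and the other 6 Bdnf windows 2 to 13. Over all windows the median was 7 and the quartiles were 3 and 20. These windows are on another build than the peaks, so no peak could be placed against them, or in an exon, intron or promoter. Neighbours were taken from RefSeq genes as the protein-coding genes before and after each gene in order of start coordinate. They are Kif18a and Lin7c for Bdnf, Mroh4 and Jrk for Arc, and Tmed10 and Jdp2 for Fos. For Egr1 they are Reep2 and Etf1, and for Npas4 Mrpl11 and Slc29a2.

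The lists differed in length, which bears on every comparison. They held 25548 and 30832 peaks in aged enriched, 59260 and 38000 in aged control, 57492 and 59462 in young enriched and 43709 and 78980 in young control samples. The number of reads behind each list is unknown, so a place without a peak is a place where none was called, not a place shown to lack 5hmC. Aged enriched replicate 2 stood apart: its median peak was 430 bp wide and 72.4% of its peaks had a score of at least 100, against 650 to 952 bp and 9.92% to 31.9% in the other 7 lists. Each peak has a score given by the authors, on a scale on which MACS writes a smaller p-value as a higher score, and it describes a peak within its own list. The files measure DNA only, so the tissue could not be checked against marker expression.

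The share of each locus lying under peaks differed widely among the 5 genes. Egr1 and Fos were the most covered, at 6.66% ± 4.20 and 6.45% ± 3.67 of their 50 kb (mean ± SD, n = 8 samples), and their order does not exceed that spread. Arc followed at 1.34% ± 1.69, Npas4 at 0.953% ± 1.04 and Bdnf at 0.634% ± 0.612, and these 3 also lay within the spread of each other. Among the 28326 other 50 kb windows with a peak in any list the median was 1.61%. Egr1 lay above 85.5% of those windows, Fos above 84.8%, Arc above 45.5% and Npas4 above 37.9%. Bdnf, set beside 100 kb windows with a median of 1.39%, lay above 33.3% of them. Of the 5 loci, Egr1 and Fos thus lay above the median of the windows with a peak, and Arc, Npas4 and Bdnf below it. Windows with no peak in any list, 46.1% of all 52567 windows of 50 kb, are left out of these ranks. The ranks therefore do not place a locus among all windows of the genome. Peaks in the loci were 404 to 2346 bp wide with a median of 894.5 bp, and 25 of the 68, or 36.8%, had a score of at least 100, against 28.0% of all peaks (9.92% to 72.4% by list).

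**Figure D1:**
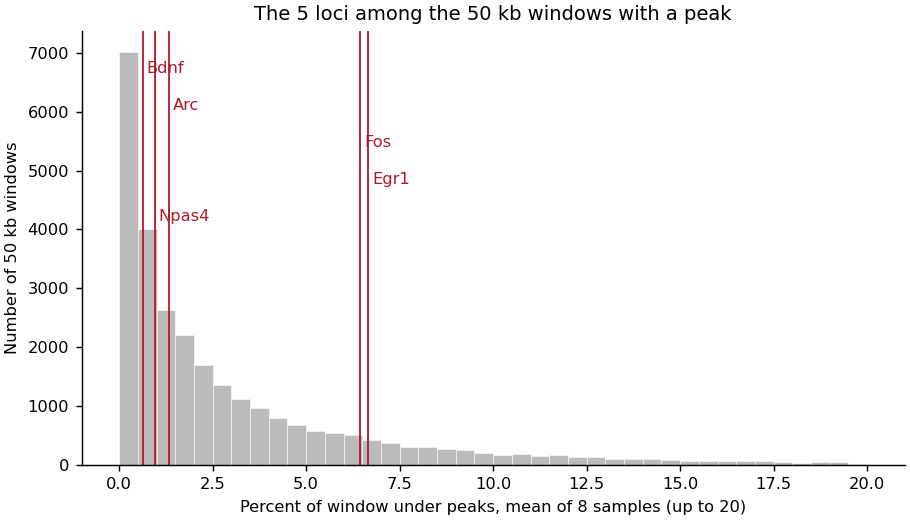
Number of 50 kb windows (y axis) by the percent of the window under peaks, as the mean of 8 samples (x axis, up to 20%), over the 28326 other windows with a peak in any list; red lines mark the 5 loci, and Bdnf is drawn at the value of its 100 kb interval. Egr1 at 6.66% and Fos at 6.45% lie well to the right of the median of 1.61%, and Arc, Npas4 and Bdnf to its left.

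**Figure D2:**
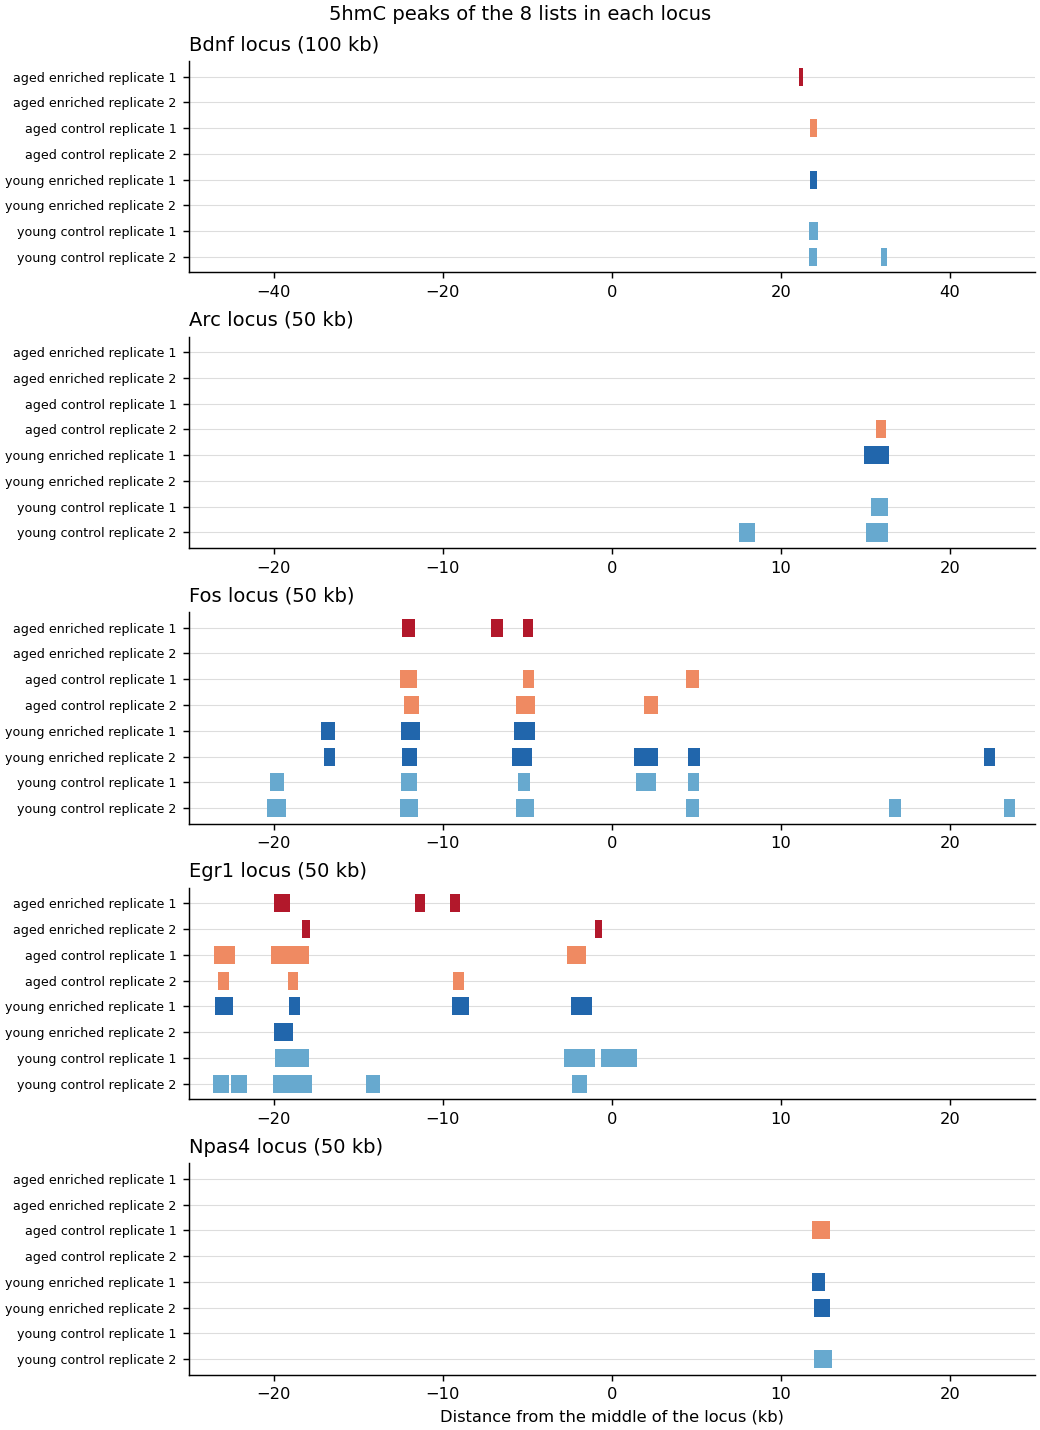
Position of every 5hmC peak in the 5 loci, in kb from the middle of each locus (x axis), with 1 row per sample from aged enriched at the top to young control at the bottom. The 29 Fos peaks spread over most of the locus and the 24 Egr1 peaks lie mainly left of the middle, while the 6 Bdnf, 5 Arc and 4 Npas4 peaks lie right of it.

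Merging peaks that overlapped by at least 1 bp gave 23 regions: 10 at Fos, 7 at Egr1, 3 at Bdnf, 2 at Arc and 1 at Npas4. Regions are numbered below from low to high coordinates within a locus. A single sample supplied 9 of the 23, or 39.1%, against 46.7% of the 156744 regions of the genome. Another 6 regions had a peak in 4 samples, or 26.1%, against 8.10% in the genome. Only 1 region, at Egr1, had a peak in all 8 samples, where 1.31% of all regions did.

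Fos was lower in aged than in young mice in the length under peaks, with no overlap. Peaks covered 4.18% and 0% of the locus in aged enriched, 4.83% and 5.82% in aged control, 6.23% and 10.95% in young enriched and 8.76% and 10.8% in young control samples. The 4 aged samples were all below the 4 young samples. This was so for 9.74% of the 28331 windows of 50 kb with a peak in any list, and for no other of the 5 loci. Aged samples averaged 3.71% ± 2.56 and young samples 9.19% ± 2.21 (SD, n = 4 each). The difference of −5.48 percentage points gave p = 0.0286 in an exact two-sided permutation test that ignored housing. This is the smallest p that 4 against 4 samples allow in such a test. Benjamini-Hochberg adjustment over 28331 windows gave 0.292; with 9.78% of windows at an exact p under 0.05, no window could reach an adjusted p of 0.05 in this design. The aged lists were the shorter ones on average. Scaled to the length each list covered in the genome, Fos held 114 and 0 bp per Mb under peaks in aged enriched, 41.3 and 92.7 in aged control, 56.1 and 89.2 in young enriched and 97.2 and 62.5 in young control samples. On this scale the age groups overlapped, with means of 62.1 bp per Mb in aged and 76.3 in young samples (exact permutation p = 0.629). Without any 1 of the 4 aged samples or young enriched replicate 2, the exact p of the unscaled difference was 0.0571, and the difference was then −4.25 to −6.19 points.

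Within Fos, 2 regions carried most of the shared signal. Region 3, chr12:86802447-86803640, and region 5, chr12:86809081-86810485, each had a peak in 7 samples and none in aged enriched replicate 2. The scores at region 3 were 94.2 in aged enriched replicate 1, 90.0 and 125 in aged control, 132 and 82.3 in young enriched and 108 and 150 in young control samples. At region 5 they were 52.2 in aged enriched replicate 1, 60.3 and 114 in aged control, 145 and 100.6 in young enriched and 54.1 and 92.0 in young control samples. The 7 peaks shared a stretch of 654 bp at region 3 and 407 bp at region 5. Of the 4540 regions of the genome with a peak in 7 samples, 1929, or 42.5%, lacked the same sample. The other 3 aged samples had peaks at both regions.

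At 2 smaller Fos regions, peaks were called in the young samples of 1 housing only. Region 2, chr12:86797830-86798640, had peaks with scores of 68.7 and 71.9 in the 2 young enriched samples and in no other sample. Region 1, chr12:86794585-86795716, lay 2113 bp away and had peaks with scores of 62.1 and 79.2 in the 2 young control samples and in no other. Within their own lists, the young enriched scores at region 2 were at or above 46.0% and 48.6% of the peaks, and the young control scores at region 1 at or above 34.3% and 50.7%. A peak in both young enriched and no young control samples was found at 1 of the 23 regions, against 2.13% of all regions. The opposite was also found at 1 of 23, against 2.78%. Regions 6 and 7 had peaks in 3 and 4 samples with scores of 52.0 to 62.3 and 50.4 to 76.9, and the other 4 regions of the locus were called in 1 sample each.

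The Egr1 locus held the highest peak score of the 5 loci, in region 2. That region was centred at −18.94 kb from the middle of the interval and was not assigned to Egr1 or to a neighbouring gene. Region 2, chr18:35004824-35007294, had a peak in every sample, with scores of 113 and 128 in aged enriched, 339 and 51.4 in aged control, 52.4 and 83.8 in young enriched and 227 and 165 in young control samples. The peaks covered 946 and 475 bp in aged enriched, 2271 and 577 bp in aged control, 654 and 1099 bp in young enriched and 2039 and 2346 bp in young control samples. The 2 aged control samples lay far apart in both measures. The 8 peaks had no base in common, because the peak of aged enriched replicate 2, at 35006657 to 35007131, did not overlap those of aged enriched replicate 1, aged control replicate 2 and the 2 young enriched samples. Region 1, chr18:35001392-35003402, had peaks with scores of 123 and 54.4 in the 2 aged control samples and none in the aged enriched samples. That pattern was found at 1 of 23 regions, against 5.60% of all regions. Region 1 also had a peak in young enriched replicate 1 and young control replicate 2.

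Across Egr1, peaks covered 4.37% and 1.76% of the locus in aged enriched, 9.22% and 3.73% in aged control, 7.99% and 2.20% in young enriched and 12.03% and 11.99% in young control samples. Young control replicates were the highest and nearly equal on this scale. Per Mb under peaks in the whole list, Egr1 held 119 and 64.2 bp in aged enriched, 78.8 and 59.4 in aged control, 72.0 and 17.9 in young enriched and 133 and 69.3 in young control samples, so that young control replicate 2 lay below 1 sample of each other group. Enriched samples averaged 4.08% ± 2.85 and control samples 9.24% ± 3.90 (SD, n = 4 each), a difference of −5.16 points with an exact permutation p of 0.0857 that does not pass 0.05; per Mb under peaks enriched samples averaged 68.4 bp and control samples 85.2 bp (exact permutation p = 0.486, n = 4 each). Aged control replicate 2 lay within the enriched range. The age groups, with 4.77% ± 3.17 in aged and 8.55% ± 4.64 in young samples, also overlapped (difference −3.78 points, exact permutation p = 0.229).

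**Figure D3:**
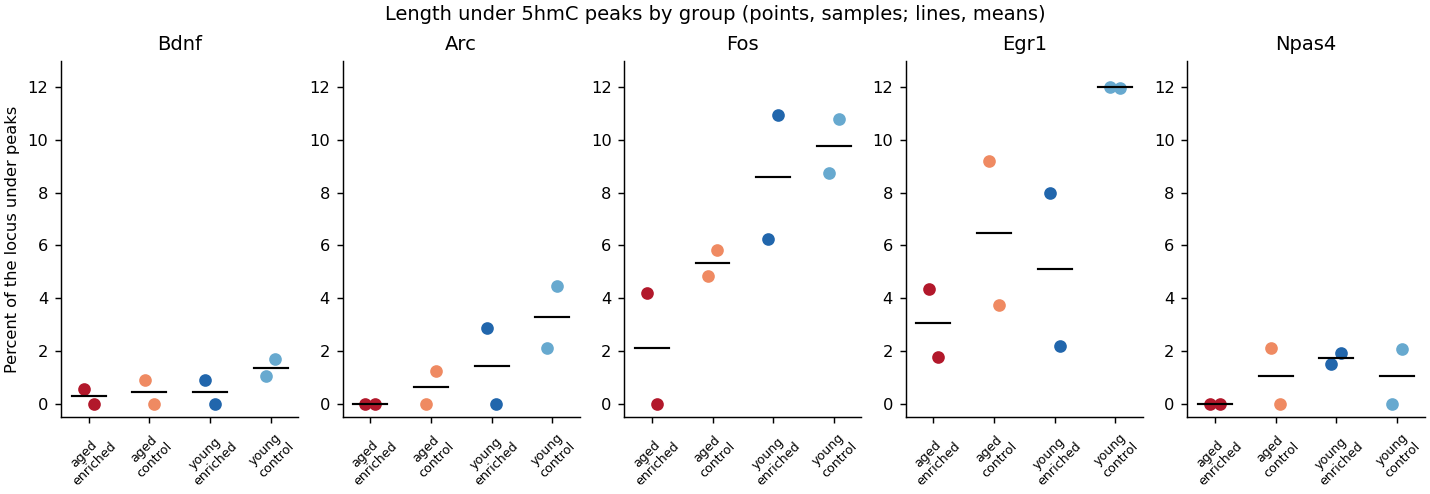
Percent of each locus under 5hmC peaks (y axis) in the 4 groups, with aged left of young and enriched left of control within an age; points are samples and lines the mean of 2. At Fos all aged samples, at 0% to 5.82%, lie below all young samples, at 6.23% to 10.95%, and at Egr1 the young control samples are highest, at 12.03% and 11.99%, before any scaling to the length of the lists.

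The Bdnf locus held 6 peaks in its 100 kb. The first peak lay 72.1 kb from the start of the 100 kb interval, and the first 50 kb had no peak in any list, as had 46.1% of all 52567 windows of 50 kb. Region 2, chr2:109563320-109564364, was the main Bdnf region, with scores of 117 in aged control replicate 1, 86.1 in young enriched replicate 1 and 135 and 111 in the 2 young control samples. The 4 peaks shared 826 bp. No peak was called there in the other 4 samples, among them both aged enriched samples. Aged enriched replicate 1 had a peak 655 bp away in region 1, with a score of 53.0, and young control replicate 2 had one with a score of 57.0 in region 3. Egr1 region 6, chr18:35022170-35023984, had peaks in the same 4 samples as Bdnf region 2, with scores of 101.03 in aged control replicate 1, 118 in young enriched replicate 1 and 156 and 58.3 in young control samples. In the genome 697 regions, or 0.445%, had peaks in just those 4 samples.

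In all, peaks covered 0.560% and 0% of the Bdnf locus in aged enriched, 0.881% and 0% in aged control, 0.897% and 0% in young enriched and 1.05% and 1.69% in young control samples. Replicate 2 of 3 groups had no peak at all. Aged samples averaged 0.360% ± 0.436 and young samples 0.908% ± 0.696 (SD, n = 4 each; difference −0.547 points, exact permutation p = 0.200). Enriched samples averaged 0.364% ± 0.443 and control samples 0.904% ± 0.696 (difference −0.539 points, exact permutation p = 0.286). Neither difference passes 0.05, and the ranges overlap.

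The Arc locus was represented by essentially 1 site, centred 15.64 kb from the middle of the interval and not assigned to a gene. Region 2, chr15:74514915-74516360, had scores of 57.4 in aged control replicate 2, 121 in young enriched replicate 1 and 121 and 100 in young control samples, and the 4 peaks shared 614 bp. Region 1 held 1 peak, of young control replicate 2. Peaks covered 0% and 0% of the locus in aged enriched, 0% and 1.23% in aged control, 2.89% and 0% in young enriched and 2.11% and 4.45% in young control samples. Aged samples averaged 0.307% ± 0.614 and young samples 2.36% ± 1.85 (SD, n = 4 each), and the difference of −2.06 points gave an exact permutation p of 0.143. Without young enriched replicate 2, which had no peak, the difference was −2.84 points. Its exact permutation p was 0.0286, the smallest that 4 against 3 samples allow. In this setting 8.77% of the windows with a peak in any remaining list had an exact p under 0.05. Without any other single sample the Arc difference was −1.36 to −2.36 points with an exact permutation p of 0.143 to 0.257. Enriched samples averaged 0.722% ± 1.44 and control samples 1.95% ± 1.88, with an exact permutation p of 0.371 (n = 4 each).

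Npas4 also had a single region, chr19:4996851-4997994. Its scores were 105 in aged control replicate 1, 51.2 and 102 in young enriched samples and 99.5 in young control replicate 2, and the 4 peaks shared 644 bp. Peaks covered 0% and 0% of the locus in aged enriched, 2.11% and 0% in aged control, 1.49% and 1.93% in young enriched and 0% and 2.09% in young control samples. Apart from the 2 young enriched samples, replicates of a group with a peak disagreed on whether there was one. Aged samples averaged 0.528% ± 1.06 and young samples 1.38% ± 0.953 (exact permutation p = 0.486), and enriched samples 0.856% ± 1.01 and control samples 1.05% ± 1.21 (exact permutation p = 0.657; SD, n = 4 each).

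**Figure D4:**
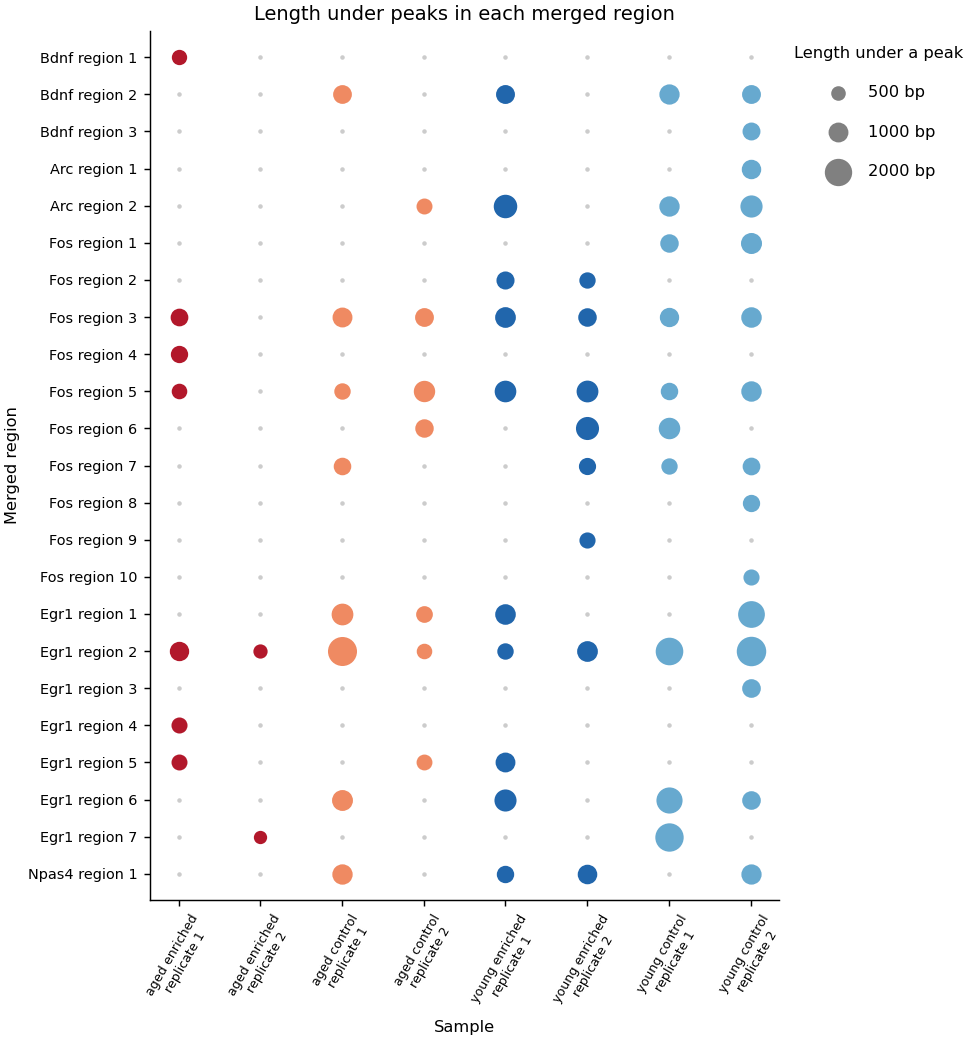
Length under 5hmC peaks (circle area) in each of the 23 merged regions (rows, by locus) in the 8 samples (columns, from aged enriched on the left to young control on the right); small grey dots mark no peak. Only Egr1 region 2 has a peak in all 8 samples, and 9 of the 23 regions have a peak in 1 sample.

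Side by side, every locus had a lower mean coverage in aged than in young samples and in enriched than in control samples. The sign turned at Egr1 for age when scaled to the length under peaks, at Npas4 for age with scores of at least 100, and at Fos for housing with equally long lists. Most 50 kb windows with a peak in any list, without these alternatives, also had lower means in aged and in enriched samples. The aged minus young difference was below 0 in 83.4% of the 28331 windows, with a median of −1.11 points. The enriched minus control difference was below 0 in 71.7%, with a median of −0.530 points. All 4 enriched samples lay below all 4 control samples in 0 of the 5 loci, against 1.34% of windows. Among aged mice, both enriched samples lay below both control samples at 1 of the 5 loci, Fos, against 31.9% of windows. Among young mice this was so at 2 of the 5, Bdnf and Egr1, against 12.2% of windows. No region in the loci had peaks in all young and no aged samples, a pattern of 0.894% of all regions, or in all control and no enriched samples, a pattern of 0.209%.

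The design also asks whether the effect of housing depends on age. The aged housing difference minus the young one was 0.758 percentage points at Bdnf, 1.22 at Arc, −2.03 at Fos, 3.50 at Egr1 and −1.72 at Npas4. The exact permutation p, from exchanging housing labels within each age, was 0.50 at Bdnf and Npas4, 0.667 at Arc, 0.556 at Fos and 0.611 at Egr1, and this design cannot go below 0.0556. In all, 15 exact tests were made over the 5 loci, and adjustment over all windows says nothing further, since no adjusted p could reach 0.05 in any of these comparisons.

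Counting peaks by midpoint relative to list length gave no called difference. In limma, 0% of the 14696 windows with a mean of at least 1 peak passed an adjusted p of 0.05 in any of 5 contrasts: aged enriched minus aged control, young enriched minus young control, enriched minus control, aged minus young and their interaction. Unadjusted p was under 0.05 in 1639, 272, 908, 1318 and 936 windows of these contrasts in the same order. Only Fos and Egr1, with means of 3.63 and 3 peaks per sample, were frequent enough to be tested; Arc, Npas4 and the second 50 kb of Bdnf averaged 0.625, 0.5 and 0.75 peaks. The aged minus young log2 difference in peaks per 1000000 peaks was −0.37 ± 0.39 (SE) at Fos and 0.60 ± 0.38 at Egr1, with limma adjusted p of 0.817 and 0.680, beside a median of 0.15 over all windows. The aged enriched minus aged control log2 difference was −0.24 ± 0.56 at Fos and 0.55 ± 0.54 at Egr1, with limma adjusted p of 0.875 and 0.712, beside a median of 0.26. The constant pseudocount of 1 peak raises sparse windows in shorter lists. Fos and Egr1 thus had estimates of opposite sign, and none of these passed the test.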

How the data were processed

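Hippocampal 5hmC was profiled in 8 samples, which the labels put into 4 groups of 2 by age and housing. The deposited files are 1 peak list per sample, in which each peak has an authors' score. Bowtie 0.12.9, CASAVA 1.4, MACS 1.4.2 and the build mm9 are named, with no roles, in the submitters' processing notes. Caller settings, the control library and read numbers were not given in the sources used here. Coordinates are the authors', counted from 1.

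The loci, lists and tests were chosen with earlier results of these data known. For each locus and for every 50 kb window with a peak in any list (100 kb windows for the rank of Bdnf), the percent of its length under peaks was computed per sample. Groups of 4 were compared by exact two-sided permutation tests (70 assignments, smallest p 0.0286). These exchanged labels over all 8 samples and ignored the other factor. The interaction permuted housing within age (36 assignments, smallest p 0.0556). With 2 samples against 2 there are 3 ways to divide them, so the percent under peaks has no permutation test there; peak counts of the same pairs of groups were tested in limma. Adjustment was over all windows, where the plan had it over the loci. Regions are peaks of all samples merged where they overlap by at least 1 bp. limma 3.58.1 (R 4.3.3) with an intensity trend was fitted to log2 of midpoint counts, plus 1 peak, per 1000000 peaks of the list, in all 8 samples as 4 groups. The permutation tests were checked on small made-up examples and limma on simulated counts. At the real counts, limma was required only to give the right direction. Calling of the changed windows was required only with many more peaks per window. These checks thus set no requirement on power at the real counts. The simulated fits used a pseudocount in proportion to list length and no filter, unlike the main fit. The rule named regions called in all samples, those with the highest score of their locus, and those called in each sample of 1 group but in none of the group it was compared with. Other regions named were chosen after their values were seen. Alternatives were a score of at least 100, equally long lists, scaling to the length under peaks, shorter loci, other pseudocounts and filters, a replicate block and leaving out each sample. A planned list of pathway genes was not analysed here, since it needs an mm9 annotation.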

Additional observations from a re-analysis of the deposited data

Results flagged for a closer look

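In 3 cases a sample stood far from the others of its group, in a check of 20 groups of 4 samples (the 5 loci by age and by housing), where chance marks about 1 group in 20 when values are not tied. Among aged samples at Arc, aged control replicate 2 had 1.23% of the locus under peaks and the other 3 had 0%. Among enriched samples at Arc, young enriched replicate 1 had 2.89% and the other 3 had 0%. Among aged samples at Npas4, aged control replicate 1 had 2.11% and the other 3 had 0%. Each value is that of a single peak, and with the other 3 samples tied at 0 any peak would have been marked.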

How the results depend on the processing

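The age difference at Fos was the only 1 of the 5 loci with an exact p under 0.05, and 0 loci had one with scores of at least 100 (Fos −1.74 points, exact permutation p = 0.200), with equally long lists (−0.200, p = 0.857), scaled to the length under peaks (p = 0.629) or with loci 10 kb shorter at each end (−4.61, p = 0.114). In the same order, 4.83%, 5.58%, 3.04% and 8.13% of the windows with any length under peaks in that setting had an exact p under 0.05, against 9.78% as reported. Leaving out 1 sample at a time gave 0 to 1 such loci. The sign turned in these cases: aged minus young at Egr1 scaled to the length under peaks (7.27 bp per Mb) and at Npas4 with scores of at least 100 (0.044 points), and enriched minus control at Fos with equally long lists (0.279 points). Without 1 sample, enriched minus control at Npas4 ranged over −0.552 to 0.161 points, the interaction at Arc over −0.219 to 2.67 and that at Fos over −4.40 to 0.327. The loci held 23 regions, but 14 with equally long lists, 9 with scores of at least 100 and 18 to 23 without 1 sample. The region patterns rest on counts of 1: regions with a peak in all samples, in both aged control and no aged enriched samples, and in both young control and no young enriched samples each numbered 0 with equally long lists, and 0, 0 and 2 with scores of at least 100. Without 1 sample they numbered 1 to 3, 1 to 5 and 1 to 6. Those in both young enriched and no young control samples then numbered 1 to 2, and those in both aged enriched and no aged control samples 0 to 3. These counts ask only about the samples left, so a group that lost 1 was judged on its other sample alone. The causes were not tested.

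In limma, aged enriched minus aged control gave 0 called windows, 5 with no filter and 0 to 174 without 1 sample (174 without aged enriched replicate 1, 24 without aged enriched replicate 2). A group left with 1 sample is assumed to vary like the others, whose spread alone enters the test. Aged minus young gave 0, 943 with a pseudocount of 4 peaks, 5 with no filter and 0 to 7 without 1 sample. Without 1 sample, enriched minus control gave 0 to 9 and the interaction 0 to 6. At Fos a pseudocount of 4 peaks turned the log2 difference to 0.35 (aged enriched minus aged control) and 0.13 (aged minus young), and leaving out 1 sample gave −1.38 to 0.89 and −0.93 to 0.20. A pseudocount in proportion to list length, chosen after seeing the data, gave 0 windows in all 5 contrasts. The replicate block gave 1 window for aged minus young and changed no other of the 5 counts; same-numbered samples did not deviate together (correlations of −0.0314 to 0.0424), so the numbers were not taken as pairs. Unknown read depth limits every absence of a peak.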

Other observations

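Relative to its length, the list of aged enriched replicate 1 held the most peaks in the 5 loci, 2.74 per 10000 peaks, and that of aged enriched replicate 2 the fewest, 0.649. The other 6 lists held 1.35 and 1.84 (aged control), 1.74 and 1.35 (young enriched) and 2.29 and 2.03 (young control). These rates rest on 7 peaks in aged enriched replicate 1, 2 in aged enriched replicate 2 and 7 to 16 in the other lists. Counts this small do not rank the lists. Of the 23 regions, aged enriched replicate 1 alone supplied 3, Bdnf region 1, Fos region 4 and Egr1 region 4, against 3.56% of all regions. Bdnf region 1 and Fos region 4 lay 655 and 489 bp from a region called in 4 and 7 samples. Young control replicate 2 alone supplied Bdnf region 3, Arc region 1, Fos regions 8 and 10 and Egr1 region 3, against 9.71% of all regions. Young enriched replicate 2 alone supplied Fos region 9, against 5.74%. These counts were not tested.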
